A study of Homo sapiens with 66 samples.

Results

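Halofuginone (HFG) and NCP26 inhibit the same enzyme, human prolyl-tRNA synthetase (ProRS), and the values below compare them directly in AMO1 cells after 24 h. The comparison rests on 6 of the 66 RNA-seq libraries of the series, 3 from AMO1 cells given NCP26 and 3 from AMO1 cells given HFG, chosen by the cell line, compound and time in their labels. AMO1 is an established human myeloma cell line, labelled AMO-1 WT, and both compounds were given at 1 µM for 24 h. Further comparisons used other groups, each of 3 libraries. These were AMO1 with the solvent DMSO, with NCP22 and with halofuginol at 24 h (both compounds at 1 µM). AMO1 with NCP26 and HFG at 6 h was used as well. L363-CFZr, a carfilzomib-resistant derivative of the myeloma line L363, was used with NCP26 and HFG at 24 h. DMSO libraries of AMO1 at 6 h gave levels. Some alternative fits of the direct contrast held every AMO1 group of 24 h, or every AMO1 group of the series. Both fits thereby included AMO1 cells given carfilzomib for 24 h. The fit of every AMO1 group also included carfilzomib, NCP22, halofuginol and DMSO at 6 h. The series asked how the compounds alter transcription in myeloma cells, and this direct contrast asks where a cell distinguishes between them. HFG derives from the plant alkaloid febrifugine and occupies the proline pocket of the enzyme, while NCP26 is a pyrazinamide that occupies the ATP pocket. NCP22 is the pyrazinamide from which NCP26 was developed, and halofuginol is an analogue of HFG. Equal concentration is all that the labels match. How far the enzyme was inhibited by either compound was not measured in these libraries, so a difference in degree and a difference in kind cannot be told apart.

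ProRS is a domain of EPRS1, the bifunctional synthetase that loads glutamate and proline onto their tRNAs. When a tRNA stays unloaded, the kinase GCN2 phosphorylates the initiation factor eIF2α, general translation slows, and the transcription factor ATF4 is translated and switches on genes for amino acid synthesis, uptake and tRNA loading. This is the amino acid branch of the integrated stress response (ISR). Myeloma cells are malignant plasma cells, which carry a large secretory load and depend on protein synthesis and on short-lived survival proteins.

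The 6 libraries held between 1666325 and 2974887 counts assigned to genes, the lowest being HFG replicate 1, and between 13528 and 14002 genes with a count. Across genes, log2 levels correlated at 0.984 to 0.986 between NCP26 libraries, at 0.971 to 0.983 between HFG libraries and at 0.932 to 0.944 between a library of either kind. Plasma cell markers were present in all 6 libraries (10 markers, summed level 5670 to 5750 CPM with NCP26, where CPM is the count scaled to the library size and 5840 to 5980 CPM with HFG), and the summed markers of B cells, T cells, monocytes, erythroid, stromal and epithelial cells stayed at or below 5.4 CPM in every library. HFG replicate 1 stood apart: 41 genes were at least 3 times as high in it as in each of the other 5 libraries. Of these, 38 passed the test of the contrast and 28 still passed without that library. The same genes took 1.76% of its counts, 0.251% to 0.375% of the counts of the other 5 libraries, and up to 2.86% in libraries of other groups. The cause was not tested, and results that rest on HFG replicate 1 are given with and without it. The libraries came in 3 sample-sheet sets. All 6 of the contrast, NCP22 and halofuginol belonged to the same set, whereas the DMSO libraries at 24 h belonged to another, so set and treatment cannot be told apart where the compounds are set against DMSO. The labels call the libraries triplicates without saying whether cultures were separate, so p-values measure the spread between these libraries.

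NCP26 and HFG gave different transcript levels for many genes in AMO1 cells at 24 h. Of 10775 genes tested with edgeR's quasi-likelihood test and Benjamini-Hochberg adjustment, 4842 (44.9%) passed an adjusted p of 0.05, 2433 of them (22.6% of the tested genes) higher with NCP26 and 2409 (22.4%) higher with HFG. Most differences were modest. The median size among called genes was 0.54 on the log2 scale, and 857 genes (7.95%) were both called and at least 2-fold apart, 453 higher with NCP26 and 404 higher with HFG. For 5686 genes (52.8%) the 3 NCP26 levels and the 3 HFG levels did not overlap. Lack of overlap in single genes below is to be read beside that share. Counts of list members are likewise to be read beside 22.6% and 22.4%. Here and below, a log2 fold change (log2FC) is NCP26 against HFG, positive where NCP26 was higher, its error is the standard error of the fit, and levels are CPM per library in the order of replicates 1 to 3. RNA was scaled per library, so loss of some cells and a change within each cell cannot be told apart.

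**Figure D1:**
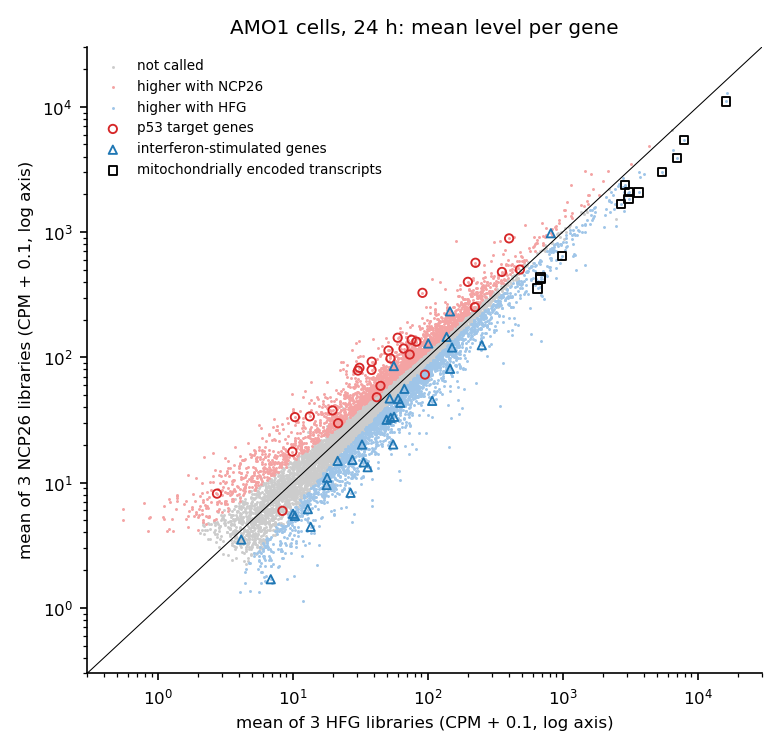
Mean level of each of the 10775 tested genes in AMO1 cells after 24 h, with HFG on the x axis and NCP26 on the y axis (CPM + 0.1, both log axes, 3 libraries each). Pale red and pale blue points are genes called higher with NCP26 or HFG, the line marks equal levels, and the outlined p53 targets lie mostly above it while outlined interferon-stimulated genes and mitochondrially encoded transcripts lie mostly below it.

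NECTIN1 (chr11:119623408-119729200, GRCh38), which encodes a cell adhesion molecule of the nectin family, stood at 835, 888 and 825 CPM with NCP26 and at 183, 153 and 149 CPM with HFG, a log2FC of 2.41 ± 0.06 (adjusted p = 7.37e-15). All NCP26 libraries were several-fold above all HFG libraries. L1CAM, a neural adhesion molecule, was at 17.02, 17.5 and 17.2 CPM against 1.25, 3.65 and 2.54 CPM (log2FC 2.71 ± 0.30). CBFA2T3, a transcriptional corepressor, was at 48.3, 57.4 and 46.5 CPM against 14.3, 8.66 and 6.16 CPM (log2FC 2.48 ± 0.20). Lack of overlap between the groups was a condition for the 10 largest named here, so it is not a result for them. STEAP1 (log2FC 2.85), PHKA1 (2.79), SOX5 (2.52), SYTL1 (2.45), ARHGDIB (2.37), LOXL4 (2.34) and NFATC4 (2.22) completed the 10 largest.

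In the opposite direction EGR1, an immediate early transcription factor, led with 1.36, 1.07 and 0.66 CPM with NCP26 and 11.2, 9.57 and 14.8 CPM with HFG, a log2FC of -3.50 ± 0.39 (adjusted p = 8.02e-07). It was nearly silent with NCP26 and low but present with HFG. SERF1A followed with 0, 1.07 and 5.28 CPM against 16.2, 13.2 and 15.6 CPM, although it has a near-identical copy in the genome and its reads could be divided between copies. Of the 10 largest differences towards HFG, 7 belonged to genes that stood apart in HFG replicate 1. All 7 kept a negative log2FC without that library. KCNK2, a potassium channel gene, was at 36.4, 36.01 and 49.9 CPM with NCP26 and at 884, 75.2 and 69.5 CPM with HFG, and its log2FC shrank from -2.98 to -0.81 without HFG replicate 1. The same held for SCARF2 (-2.75 to -0.89), FEZF2 (-2.41 to -1.14), EHHADH (-2.41 to -0.87), LRRC63 (-2.33 to -0.75), OR1N1 (-2.32 to -0.73) and DKK3 (-2.30 to -1.51). LRRC63 lost its call with that (adjusted p = 0.0855 without HFG replicate 1). FEZF2, OR1N1 and DKK3 lost theirs with all 12 AMO1 groups or the 6 of 24 h in the fit. Their adjusted p reached 0.0677, 0.0672 and 0.137. EHHADH lost its call with the 6 groups of 24 h (adjusted p = 0.0619). SERF1A lost its call with the DESeq2 Wald test (adjusted p = 0.0592). USP17L23, of a multicopy family, stood at -2.44 with and -2.06 without that library.

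Without HFG replicate 1, the 10 largest differences towards HFG included EGR1 (-3.54), SERF1A (-2.72), SLA, CT45A5, CD8B, CCR1 and ENC1, and EGR1 and SERF1A were named under both choices. CCR1, a chemokine receptor, was at 6.13, 4.28 and 6.27 CPM with NCP26 and at 15.6, 20.5 and 24.3 CPM with HFG. Its difference did not rest on a single library. CD8B and CT45A5 are low-level genes with close paralogues, and their log2FC without the library was -2.13 and -2.16. CT45A5 was not called with the 6 AMO1 groups of 24 h in the fit (adjusted p = 0.053).

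Targets of the tumour suppressor p53 had, among lists of at least 7 tested members, the largest share called higher with NCP26. Of 28 tested members 23 were called higher with NCP26 and 1 higher with HFG, with a median log2FC of 0.90 against -0.01 over all tested genes. CDKN1A (chr6:36676460-36687337), which encodes the cyclin-dependent kinase inhibitor p21, was at 341, 313 and 326 CPM with NCP26 and at 93.5, 94.3 and 86.5 CPM with HFG. The log2FC was 1.84 ± 0.07 (adjusted p = 2.04e-13), with no overlap, as for 52.8% of all tested genes. MDM2, the ubiquitin ligase that degrades p53, was at 894, 940 and 836 CPM against 390, 416 and 398 CPM (log2FC 1.15 ± 0.05, adjusted p = 1.81e-12). EDA2R (log2FC 1.66 ± 0.18), a death-domain receptor gene, and TP53I3 (1.62 ± 0.35), an oxidoreductase gene, were low in level and likewise apart. GDF15, a secreted stress cytokine that ATF4 also controls, was at 77.6, 74.5 and 95.1 CPM against 42.4, 22.8 and 28.2 CPM (log2FC 1.45 ± 0.15). PMAIP1, which encodes the BH3-only protein NOXA, was the member higher with HFG, at 74.9, 71.7 and 71.6 CPM with NCP26 and at 89.8, 92.0 and 104 CPM with HFG (log2FC -0.40 ± 0.08, adjusted p = 0.000817). Without HFG replicate 1 the list counted 22 members higher with NCP26 and 1 higher with HFG.

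**Figure D2:**
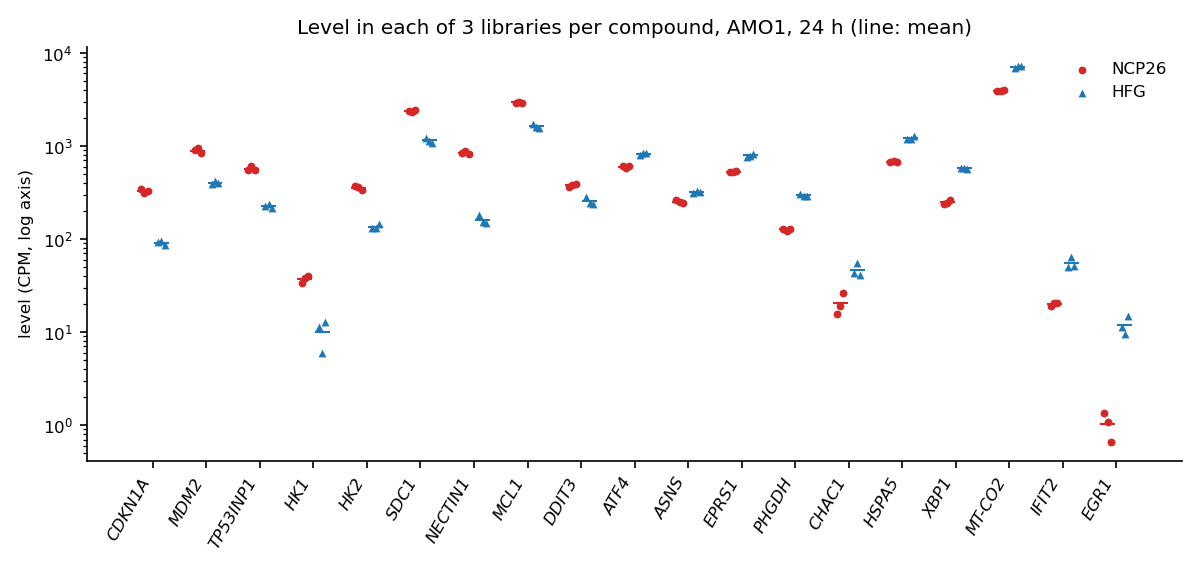
Level of selected genes in each of the 3 NCP26 libraries (red circles) and the 3 HFG libraries (blue triangles) of AMO1 cells at 24 h, on a log axis in CPM, with a line at each mean. CDKN1A sits at 313 to 341 CPM with NCP26 and at 86.5 to 94.3 CPM with HFG, EGR1 shows the widest gap in the opposite direction, and the replicates of a compound lie close together except for low-level genes.

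Genes of the cell death machinery were called in both directions. Of 16 tested members of the BCL2 family 7 were higher with NCP26 and 3 higher with HFG (median log2FC 0.29). The 3 was near the 22.4% of all tested genes called higher with HFG. MCL1, an anti-apoptotic member on which myeloma cells depend, was at 2918, 2991 and 2881 CPM with NCP26 and at 1737, 1599 and 1571 CPM with HFG (log2FC 0.84 ± 0.03, adjusted p = 1.77e-12). BBC3, which encodes the pro-apoptotic BH3-only protein PUMA, was at 106, 116 and 118 CPM against 54.9, 57.0 and 41.6 CPM (log2FC 1.17 ± 0.10), and BAX, a pore-forming effector, was also higher with NCP26 (0.82 ± 0.08). Both pro- and anti-apoptotic members were thus among those higher with NCP26. BNIP3 (-0.67) and BMF (-0.24) were, with PMAIP1, the members higher with HFG. BMF kept its call in 7 of 15 other settings (adjusted p up to 0.154), losing it without NCP26 replicate 2 or 3 or HFG replicate 2 or 3 among others, and PMAIP1 lost it with the 6 AMO1 groups of 24 h in the fit (adjusted p = 0.0641). Among 21 death receptor and caspase genes 8 were higher with NCP26 and 1, CASP2, higher with HFG (-0.35). CASP2 kept its call in 3 of 15 other settings, and lost it without any 1 of the 3 NCP26 libraries or without HFG replicate 2 or 3 (adjusted p up to 0.289 over all settings). TNFRSF10D, a decoy receptor for the ligand TRAIL, had the largest difference, with 140, 123 and 129 CPM against 36.2, 27.8 and 23.9 CPM (log2FC 2.20 ± 0.11, adjusted p = 3.87e-11). FAS (1.04) and TNFRSF10B (1.02), which encode signalling death receptors, were higher with NCP26 too.

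Glycolysis and hypoxia-response genes were mostly higher with NCP26. Of 18 tested glycolysis genes 14 were higher with NCP26 and 2 higher with HFG (median log2FC 0.39). The hexokinases led: HK2 was at 367, 360 and 335 CPM with NCP26 and at 130, 131 and 146 CPM with HFG (log2FC 1.38 ± 0.06, adjusted p = 7.15e-12), and HK1 was at 34.03, 37.8 and 39.6 CPM against 11.2, 5.92 and 12.7 CPM (1.88 ± 0.20). ENO2, an enolase, differed by 0.94 ± 0.07. LDHB (-0.29) and ALDOA (-0.14) were the members higher with HFG, calls lost with all 12 AMO1 groups or the 6 of 24 h in the fit (adjusted p up to 0.168 and 0.241). Of 19 hypoxia-response genes 14 were higher with NCP26 and 3 higher with HFG (median log2FC 0.48). NDRG1 (1.29), the glucose transporter gene SLC2A3 (1.12) and the transcriptional repressor gene BHLHE40 (1.11) had the largest differences. ADM, which encodes the vasodilator peptide adrenomedullin, went against the rest of the list with 52.1, 54.2 and 56.5 CPM with NCP26 and 135, 162 and 138 CPM with HFG (log2FC -1.42 ± 0.09). BNIP3 and P4HA2 (-0.56) were also higher with HFG.

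The ISR genes differed in both directions. Of 9 tested ISR transcription factors and feedback genes 6 were higher with NCP26 and 1, ATF4 itself, higher with HFG (median log2FC 0.26). ATF4 was at 604, 579 and 608 CPM with NCP26 and at 792, 832 and 836 CPM with HFG (log2FC -0.46 ± 0.04, adjusted p = 5.14e-08). DDIT3, which encodes the pro-apoptotic factor CHOP, was at 364, 376 and 394 CPM against 283, 243 and 239 CPM (0.57 ± 0.06, adjusted p = 6.26e-07). The groups did not overlap for either gene (nor for 52.8% of all tested genes), and the signs were opposite. PPP1R15A, which encodes the phosphatase subunit GADD34 that reverses eIF2α phosphorylation, was at 641, 638 and 642 CPM against 459, 453 and 424 CPM (0.53 ± 0.04). ATF5 differed by 0.87 ± 0.14. TRIB3, a pseudokinase gene induced by ATF4 and CHOP, was at 400, 420 and 431 CPM against 364, 390 and 355 CPM (0.17 ± 0.05, adjusted p = 0.0101), a call lost without NCP26 replicate 3 (adjusted p = 0.0582), without HFG replicate 3 (adjusted p = 0.057) and with all 12 AMO1 groups or the 6 of 24 h in the fit (adjusted p up to 0.126). ATF3 (0.05 ± 0.08, adjusted p = 0.629) did not pass, with 103, 102 and 100 CPM against 92.9, 106 and 95.2 CPM.

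Within the ATF4 targets several genes of amino acid synthesis were higher with HFG, while GDF15, MAP1LC3B and KLHL24 were higher with NCP26. Of 41 tested members 10 were higher with NCP26 and 21 higher with HFG (median log2FC -0.17). PHGDH, the first enzyme of serine synthesis, was at 129, 123 and 129 CPM with NCP26 and at 301, 292 and 293 CPM with HFG (log2FC -1.22 ± 0.06, adjusted p = 1.23e-11). CBS, the enzyme that condenses serine with homocysteine, was at 81.0, 83.4 and 78.2 CPM against 210, 180 and 173 CPM (-1.20 ± 0.08). CHAC1, which encodes a glutathione-degrading enzyme, was at 15.7, 18.9 and 26.4 CPM against 43.02, 54.7 and 40.6 CPM (-1.17 ± 0.17, adjusted p = 2.42e-05). ASNS, asparagine synthetase, was at 259, 252 and 243 CPM against 315, 327 and 323 CPM (-0.36 ± 0.05). None of these genes overlapped between compounds, as was the case for 52.8% of all tested genes. In the other direction GDF15 had the largest difference of the list (1.45). MAP1LC3B, which encodes an autophagosome protein, was at 339, 349 and 371 CPM against 200, 199 and 206 CPM (0.81 ± 0.06), and KLHL24 (0.78) followed it. ATG12, another autophagy gene of the list, was higher with HFG (-0.36 ± 0.09, adjusted p = 0.00434). Its call was lost with the 6 AMO1 groups of 24 h in the fit (adjusted p = 0.0685). INHBE, an activin subunit gene, was at 136, 138 and 129 CPM against 140, 124 and 139 CPM (0.00 ± 0.07, adjusted p = 0.998). SESN2, a stress-induced inhibitor of mTORC1, did not pass either (0.16 ± 0.07, adjusted p = 0.0668), although it passed without NCP26 replicate 1 (adjusted p = 0.0352), without HFG replicate 3 (adjusted p = 0.0124) and in 4 other settings, namely no filter, the replicate block, the GC offset and the GC offset with the block.

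EPRS1, the target of both compounds (chr1:219968600-220046530), was at 522, 530 and 536 CPM with NCP26 and at 769, 787 and 824 CPM with HFG, a log2FC of -0.58 ± 0.04 (adjusted p = 2.33e-09). Every HFG library lay above every NCP26 library, and 52.8% of all tested genes had no overlap in either direction. Of 7 tested genes of proline synthesis and prolyl-tRNA synthetases 5 were higher with HFG and 0 higher with NCP26 (median log2FC -0.60). PYCR1, which catalyses the last step of proline synthesis in mitochondria, was at 84.1, 79.9 and 85.8 CPM against 175, 180 and 169 CPM (-1.07 ± 0.07). OAT, ornithine aminotransferase, was also higher with HFG (-0.68). PARS2, the mitochondrial prolyl-tRNA synthetase gene, was not called. Of 20 cytosolic aminoacyl-tRNA synthetase genes 3 were higher with NCP26 and 10 higher with HFG (median log2FC -0.20). VARS1 (-0.80) and LARS1 (-0.41), for valine and leucine, were higher with HFG, and WARS1, for tryptophan, was at 1196, 1155 and 1175 CPM with NCP26 and at 724, 682 and 688 CPM with HFG (0.75 ± 0.04). AARS1, for alanine, went the same way (0.46). Of 17 mitochondrial synthetase genes 0 were higher with NCP26 and 7 higher with HFG (median log2FC -0.28), a count of 5 without HFG replicate 1. NARS2, the largest, was at 143, 116 and 198 CPM against 1283, 216 and 265 CPM and moved from -1.91 to -0.66 without that library. The DESeq2 Wald test and the wider AMO1 fits did not call NARS2 (adjusted p up to 0.0985).

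Upstream of ATF4, 2 of 15 eIF2 kinase and regulator genes were higher with NCP26 and 8 higher with HFG (median log2FC -0.23). EIF2B3, a subunit of the exchange factor that recycles eIF2, was at 17.02, 13.6 and 14.2 CPM against 38.0, 26.4 and 28.6 CPM (-1.02 ± 0.18). IMPACT, which encodes an inhibitor of GCN2, was at 27.6, 24.2 and 18.8 CPM against 36.8, 42.8 and 36.6 CPM (-0.72 ± 0.15, adjusted p = 0.000795). Amino acid transporters divided evenly, with 5 of 17 higher with NCP26 and 6 higher with HFG (median log2FC 0.06). SLC36A4, a transporter with high affinity for proline and tryptophan, was at 7.15, 8.91 and 8.58 CPM against 21.2, 19.1 and 22.8 CPM (-1.36 ± 0.21). SLC43A2 (0.87) and SLC38A2 (0.48), for large and small neutral amino acids, were higher with NCP26. Serine and one-carbon enzymes counted 4 of 13 higher with NCP26 and 6 higher with HFG (median log2FC -0.22). In that list PSAT1 (-0.96) and PSPH (-0.70), which act after PHGDH in serine synthesis, were higher with HFG, and SHMT1, the cytosolic serine hydroxymethyltransferase, was higher with NCP26 (0.85).

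Most genes of the cytosolic translation machinery were higher with HFG. Of 77 tested cytosolic ribosomal protein genes 5 were higher with NCP26 and 61 higher with HFG, with a median log2FC of -0.27. RPS15 was at 450, 452 and 460 CPM against 756, 742 and 764 CPM (-0.73 ± 0.04, adjusted p = 7.8e-11), and RPS2 at 1999, 2028 and 2067 CPM against 3085, 3095 and 3045 CPM (-0.60 ± 0.03). RPS12 and RPS7 (both 0.35) were the largest in the other direction, calls lost when the fit held all 12 AMO1 groups or the 6 of 24 h (adjusted p up to 0.097 and 0.11). These genes have many processed pseudogenes, between which reads could be divided. Of 49 ribosome biogenesis factors 0 were higher with NCP26 and 33 higher with HFG (median log2FC -0.40). EBNA1BP2 was at 16.7, 21.03 and 13.9 CPM against 32.4, 41 and 40.9 CPM (-1.17 ± 0.17), and NOP16 (-1.05) and WDR3 (-1.002) came next, all factors of ribosomal RNA processing. Translation factors counted 4 of 39 higher with NCP26 and 23 higher with HFG (median log2FC -0.21), among them EIF4EBP1, a repressor of cap-dependent initiation and an ATF4 target (-1.10), and, in the other direction, EIF5A (0.37). Mitochondrial ribosomal proteins were less one-sided, with 11 of 74 higher with NCP26 and 19 higher with HFG (median log2FC -0.13). Of 8 subunits of the chaperonin TRiC 1 was higher with NCP26 and 5 higher with HFG (-0.17). Of 17 genes in the list of SR splicing factors 2 and 6 were (-0.05), with SRSF3 at 168, 173 and 158 CPM against 312, 306 and 308 CPM. The 2 higher with NCP26 were the kinase genes CLK1 and CLK3, which the list holds beside the SR factors. CLK1 kept its call in 12 of 15 other settings. Of 15 nonsense-mediated decay factors 5 were higher with NCP26 and 1 higher with HFG (0.09), with 9 not called, and the snoRNA host gene tested, SNHG32, was higher with NCP26 (0.33).

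All 13 mitochondrially encoded transcripts were higher with HFG (median log2FC -0.685). MT-CO2, a subunit of cytochrome c oxidase, was at 3868, 3852 and 3990 CPM with NCP26 and at 6792, 7255 and 7138 CPM with HFG (-0.86 ± 0.02, adjusted p = 1.43e-14). MT-ATP8 (-0.88 ± 0.05) and MT-CO3 (-0.84 ± 0.03) had differences of similar size. Together these transcripts took 3.49%, 3.63% and 3.63% of the counts with NCP26 and 5.11%, 5.66% and 5.39% with HFG, against 4.34% to 4.49% with DMSO. The part of this share in the other differences was not tested. Nuclear genes for the respiratory chain counted 11 of 75 higher with NCP26 and 40 higher with HFG (median log2FC -0.22). NDUFB9, a complex I subunit, was at 43.9, 46.7 and 55.1 CPM against 91.0, 81.1 and 90.9 CPM (-0.85 ± 0.10), while SDHA, the flavoprotein of complex II, was higher with NCP26 (0.62). ATP5F1E (-1.11) was among the genes raised in HFG replicate 1 and stood at -0.32 without it. The DESeq2 Wald test and the wider AMO1 fits did not call ATP5F1E (adjusted p up to 0.146).

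Interferon-stimulated genes were mostly higher with HFG. Of 31 tested members 4 were higher with NCP26 and 24 higher with HFG (median log2FC -0.71), and without HFG replicate 1 the counts were 4 and 21 (median -0.69). OASL, an antiviral protein gene related to oligoadenylate synthetases, was at 8.85, 7.13 and 8.58 CPM with NCP26 and at 26.2, 25.1 and 28.97 CPM with HFG (log2FC -1.71 ± 0.19, adjusted p = 9.29e-07). IFIT1, which encodes a sensor of foreign RNA caps, was at 6.47, 3.56 and 2.97 CPM against 12.5, 16.4 and 11.6 CPM (-1.62 ± 0.30), and IFIT2, its neighbour, at 19.1, 20.7 and 20.5 CPM against 49.9, 64.7 and 51.8 CPM (-1.47 ± 0.14). All are low to moderate in level, and the compounds did not overlap, as for 52.8% of all tested genes. STAT2, a subunit of the interferon-activated factor ISGF3, was at 244, 230 and 224 CPM against 140, 149 and 150 CPM in the other direction (0.67 ± 0.06), as were SAMD9 (0.60) and SAMD9L (0.35).

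The factor ISGF3 binds a promoter element, the ISRE, searched here as GAAA, any 2 bases and GAAA on both strands in RefSeq windows from 250 bases before to 50 bases after the start site. Of 24 members with a window 15 (62.5%) held it, against 3.65% of all 27305 windows and 2.71% of those of tested genes. It was held by 12 of 19 members higher with HFG and by 1 of 3 higher with NCP26. The stretches around the element are shown for the 3 members with the largest difference towards HFG that hold it and for SAMD9, the holder higher with NCP26, all chosen after their values were seen. They run 5′ to 3′ on the gene's strand, from RefSeq on GRCh38.p14, and capitals mark the element or its reverse complement.
IFI44 (chr1:78649759-78649788, plus strand): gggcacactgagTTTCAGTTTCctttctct
IFIT1 (chr10:89392495-89392541, plus strand): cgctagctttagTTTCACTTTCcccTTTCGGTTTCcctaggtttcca
IFIT3 (chr10:89327829-89327896, plus strand): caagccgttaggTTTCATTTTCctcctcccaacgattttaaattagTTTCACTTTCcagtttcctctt
SAMD9 (chr7:93118094-93118127, minus strand): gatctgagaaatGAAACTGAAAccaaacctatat
IFI44 was at 1.70, 1.43 and 1.65 CPM with NCP26 and at 4.37, 7.29 and 8.69 CPM with HFG (log2FC -2.12 ± 0.40), and IFIT3 at 15.3, 10.7 and 13.5 CPM against 35.5, 36.9 and 35.1 CPM (-1.44 ± 0.16). SAMD9 was at 96.0, 78.8 and 80.6 CPM against 56.7, 54.7 and 56.9 CPM. Most called members that hold the element were higher with HFG, and 3 windows are too few to describe the other direction.

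Immediate early genes respond within minutes to growth factors and stress. Of 27 tested members 6 were higher with NCP26 and 10 higher with HFG (median log2FC -0.20). Over all tested genes the shares were 22.6% and 22.4%, and the 6 was near its share. After EGR1, FOS was at 2.04, 3.56 and 3.30 CPM with NCP26 and at 13.1, 11.4 and 6.88 CPM with HFG (-1.75 ± 0.35, adjusted p = 0.000482), and GADD45B at 96.7, 91.6 and 110 CPM against 152, 183 and 167 CPM (-0.76 ± 0.08). KLF2, a quiescence-associated factor, was at 48.3, 49.2 and 46.5 CPM against 9.35, 13.7 and 12.3 CPM in the other direction (1.99 ± 0.15), with GADD45A, a p53-responsive growth arrest gene (1.35), and IER5 (0.60). EGR1 and SRF were the 2 of 19 members with a window that held a CArG box, the site of serum response factor. The box was in 1.29% of all windows and in 1.02% of those of tested genes. The upstream stretch of EGR1 is shown because it led the contrast, with 2 such boxes in capitals.
EGR1 (chr5:138465362-138465417, plus strand, GRCh38.p14): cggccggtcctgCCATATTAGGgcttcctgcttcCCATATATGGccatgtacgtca
The cyclic AMP response element TGACGTCA was found in 2 of the 19 windows, in 1.98% of all and in 3.73% of those of tested genes.

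Other list and motif pairs were less distinct. The amino acid response element that ATF4 binds, searched as TGATGNAAN, was in 6 of 33 windows of ATF4 targets (18.2%). It was in 3.67% of all windows and in 1.58% of those of tested genes. Among members with a window, 3 of 16 higher with HFG and 1 of 9 higher with NCP26 held the element. CHAC1 and ASNS, both higher with HFG, hold it.
CHAC1 (chr15:40953249-40953281, plus strand, GRCh38.p14): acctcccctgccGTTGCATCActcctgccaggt
ASNS (chr7:97872456-97872488, minus strand, GRCh38.p14): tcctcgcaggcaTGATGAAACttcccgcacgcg
The hypoxia core ACGTG was in 7 of 15 hypoxia-response windows (46.7%) and 8 of 18 glycolysis windows (44.4%), against 21.6% of all and 27.8% of those of tested genes. The full p53 site was in 0 of 22 windows of p53 targets. As it was in only 8 of all 27305 windows (0.0293%), a count over 22 windows cannot say anything about these genes. Sites outside the windows were not searched.

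Genes of the secretory pathway, the load that defines a plasma cell, were mostly higher with HFG. Of 41 genes for ER chaperones, ER-associated degradation and secretion 4 were higher with NCP26 and 27 higher with HFG (median log2FC -0.18). HSPA5, the ER chaperone BiP, was at 667, 682 and 672 CPM with NCP26 and at 1182, 1190 and 1266 CPM with HFG (-0.85 ± 0.04, adjusted p = 5.63e-12). XBP1, the plasma cell factor that drives the secretory programme, was at 238, 245 and 262 CPM against 575, 580 and 561 CPM (-1.20 ± 0.05, adjusted p = 1.77e-12). ERN1, which encodes the sensor IRE1 that splices XBP1 mRNA, went the other way with 835, 890 and 833 CPM against 345, 366 and 328 CPM (1.30 ± 0.05). CRELD2 (-1.30) and FKBP11 (-1.06) were higher with HFG, and EDEM1 (0.63) higher with NCP26. JCHAIN, which joins polymeric immunoglobulins, was at 1113, 1144 and 1104 CPM against 2556, 2432 and 2525 CPM (-1.16 ± 0.03), and IGLL5, in the lambda light chain locus, at 483, 490 and 511 CPM against 1256, 1256 and 1226 CPM (-1.33 ± 0.04). They were the 2 immunoglobulin genes tested.

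Of 23 heat shock genes 3 were higher with NCP26 and 12 higher with HFG (median log2FC -0.21), a count of 9 towards HFG without HFG replicate 1. HSPA8, the constitutive cytosolic HSP70, was at 299, 291 and 329 CPM against 731, 673 and 717 CPM (-1.21 ± 0.05), while DNAJB1, a stress-induced co-chaperone, was at 49.4, 48.8 and 54.1 CPM against 81.1, 68.3 and 78.6 CPM (-0.58 ± 0.10). HSPA4L was higher with NCP26 (0.99). Proteasome subunits counted 4 of 30 higher with NCP26 and 13 higher with HFG (median log2FC -0.11).

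Surface antigens of myeloma cells were largely higher with NCP26, 13 of 22 against 3 higher with HFG (median log2FC 0.22). SDC1, which encodes CD138, the defining plasma cell antigen, was at 2369, 2339 and 2440 CPM with NCP26 and at 1227, 1135 and 1074 CPM with HFG (1.06 ± 0.04, adjusted p = 5.42e-13). NCAM1, the adhesion molecule CD56, was at 37.8, 38.1 and 35.99 CPM against 14.3, 8.20 and 10.9 CPM (1.78 ± 0.18), and LY9 (1.59) and CD44 (1.30) followed. ITGB7, an integrin subunit, was at 279, 283 and 315 CPM against 728, 711 and 746 CPM (-1.32 ± 0.05). TNFRSF13B, which encodes the receptor TACI, was also higher with HFG (-0.95). These antigens differed in both directions.

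Plasma cell transcription factors split evenly, 6 of 16 higher with each compound (median log2FC 0.09). MAF, an oncogene in myeloma, was low in level and higher with HFG (-1.56 ± 0.42). POU2AF1, a B-lineage coactivator, was at 339, 354 and 350 CPM against 216, 192 and 197 CPM (0.79 ± 0.06), and BACH2, a repressor of plasma cell differentiation, differed by 0.98 ± 0.12. IRF4, a factor on which myeloma cells depend, showed 603, 596 and 590 CPM against 524, 523 and 561 CPM (0.15 ± 0.04, adjusted p = 0.00777). The calls of IRF4 and MAF were lost with all 12 AMO1 groups or the 6 of 24 h in the fit (adjusted p up to 0.101 and 0.219). PRDM1, which encodes BLIMP-1, differed by -0.24 ± 0.08 (adjusted p = 0.0141) and did not pass without NCP26 replicate 3 (adjusted p = 0.0915), with the DESeq2 Wald test or in those wider fits (adjusted p up to 0.137). TCF3, at 424, 392 and 447 CPM against 534, 548 and 530 CPM, was higher with HFG (-0.35 ± 0.05). MYC was at 242, 265 and 245 CPM against 312, 282 and 303 CPM (-0.25 ± 0.06, adjusted p = 0.00158), while 5 of the 11 tested genes of its network were higher with NCP26 and 2 higher with HFG (median log2FC 0.16), among them the MAX partners MXD1 (0.75) and MXI1 (0.66), which oppose MYC. All 3 PIM kinase genes, which encode survival kinases, were higher with NCP26, PIM1 at 117, 116 and 112 CPM against 43.6, 58.3 and 52.5 CPM (1.14 ± 0.09), PIM3 by 0.36 and PIM2 by 0.21 ± 0.04.

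The mitotic genes called were mostly higher with HFG. Not called were 23 of 31 replication genes and 14 of 23 G1 genes, against 5933 of all 10775 tested genes. Of 40 kinetochore, spindle and mitotic genes 2 were higher with NCP26 and 20 higher with HFG (median log2FC -0.37). CCNB1, the mitotic cyclin B1, was at 26.9, 26.4 and 27.4 CPM against 58.6, 63.8 and 60.1 CPM (-1.18 ± 0.11, adjusted p = 8.89e-08), and PTTG1, securin, at 14.3, 13.2 and 9.24 CPM against 22.4, 32.4 and 35.9 CPM (-1.34 ± 0.20). AURKB (0.54) and SPC25 (0.51) were called in the other direction. AURKB lost its call without NCP26 replicate 2 or HFG replicate 3 (adjusted p up to 0.0547), and SPC25 kept its call in 5 of 15 other settings, losing it without any 1 library other than HFG replicate 2 (adjusted p up to 0.151 over all settings). Of 31 genes of the MCM helicase and replication 6 were higher with NCP26 and 2 higher with HFG (median log2FC 0.04), with PCNA at 142, 116 and 114 CPM against 71.1, 72.4 and 68.1 CPM (0.82 ± 0.09). G1 cyclins, kinases and inhibitors counted 6 of 23 and 3 (0.04). CCND1 was low, at 9.53, 12.1 and 13.5 CPM against 4.37, 1.82 and 3.26 CPM (1.92 ± 0.33), and CCND2, the abundant D-type cyclin gene here, was at 732, 734 and 784 CPM against 574, 547 and 558 CPM (0.42 ± 0.04). The CDK inhibitors diverged, CDKN1C (1.54) with CDKN1A higher with NCP26 and CDKN2C (-1.07) higher with HFG. Of 12 tubulins 1 was higher with NCP26 and 6 higher with HFG (-0.40), 3 and 6 without HFG replicate 1, and of 13 tested replication-dependent histone genes, out of 22 in the table, 2 were higher with each compound (-0.09). Of these histone calls H4C8 kept its own in 8 of 15 other settings, and H1-2 lost its own in the 2 wider fits (adjusted p up to 0.289). The libraries were poly(A)-selected, and how well they capture histone transcripts was not tested.

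Lipid synthesis genes leaned to HFG, with 3 of 29 sterol and fatty acid genes higher with NCP26 and 15 higher with HFG (median log2FC -0.31). SCD, a fatty acid desaturase, was at 656, 637 and 630 CPM against 1114, 1192 and 1264 CPM (-0.89 ± 0.04). The NRF2 and oxidative stress list held 4 of 17 genes higher with NCP26 and 5 higher with HFG (-0.10). The 4 was near the 22.6% of all tested genes called that way. HMOX1, haem oxygenase, was at 126, 131 and 114 CPM against 54.9, 37.8 and 44.5 CPM (1.46 ± 0.11) and FTL, the ferritin light chain, at 3166, 3010 and 3041 CPM against 1513, 1449 and 1419 CPM (1.07 ± 0.03), both genes of haem and iron handling, while PRDX1 was higher with HFG (-0.95). Nutrient signalling to mTORC1 counted 8 of 29 and 4 (0.06), with the mTOR inhibitor gene DEPTOR (-1.16) and FNIP1 (-1.36) higher with HFG and the Rag GTPase gene RRAGD (0.87) higher with NCP26. Autophagy and lysosome genes counted 13 of 37 and 7 (0.06), NF-kB subunits and targets 4 of 16 and 1 (-0.05), including TNFAIP3 (1.00), which restrains NF-kB signalling. Of 6 efflux transporters 1 was higher with each compound (-0.07), and ABCB1, the multidrug transporter P-glycoprotein, was at 636, 643 and 683 CPM against 1196, 1242 and 1284 CPM (-0.92 ± 0.04, adjusted p = 4.11e-12).

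The direct contrast does not say which compound moved a gene away from the solvent, so each was also set against the same 3 DMSO libraries. NCP26 against DMSO called 6547 of 10787 genes (60.7%) and HFG against DMSO 6328 of 10723 (59.0%). By direction, 3214 were higher and 3333 lower with NCP26, and 3059 higher and 3269 lower with HFG. The 2 comparisons share the DMSO libraries, which belong to another sample-sheet set, and are given side by side. For p53 targets, 14 of 28 were higher and 8 lower with NCP26 than with DMSO (median 0.24) and 2 of 27 higher and 18 lower with HFG (median -0.58). The 8 of 28 lower with NCP26 was near the share over all tested genes. CDKN1A stood at -0.34 with NCP26 and -2.19 with HFG, and MDM2 at -0.08 and -1.24. With NCP26 CDKN1A was itself called below DMSO (adjusted p = 5.39e-06) and MDM2 was near it. With HFG both genes lay further below DMSO. All tested glycolysis genes but 1 were lower than DMSO with NCP26 (17 of 18, median -0.58), and 18 of 18 were lower with HFG (median -1.03). For ATF4 targets 33 of 41 were higher with NCP26 (median 0.82) and 35 of 41 with HFG (median 0.83). CHAC1 stood at 1.67 and 2.83, ASNS at 0.97 and 1.31, DDIT3 at 2.08 and 1.49 and ATF3 at 2.30 and 2.23. These genes were above DMSO with both compounds. ATF4 itself was called below DMSO with NCP26 (-0.36, adjusted p = 1.3e-08) and was not called with HFG (0.08, adjusted p = 0.112).

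**Figure D3:**
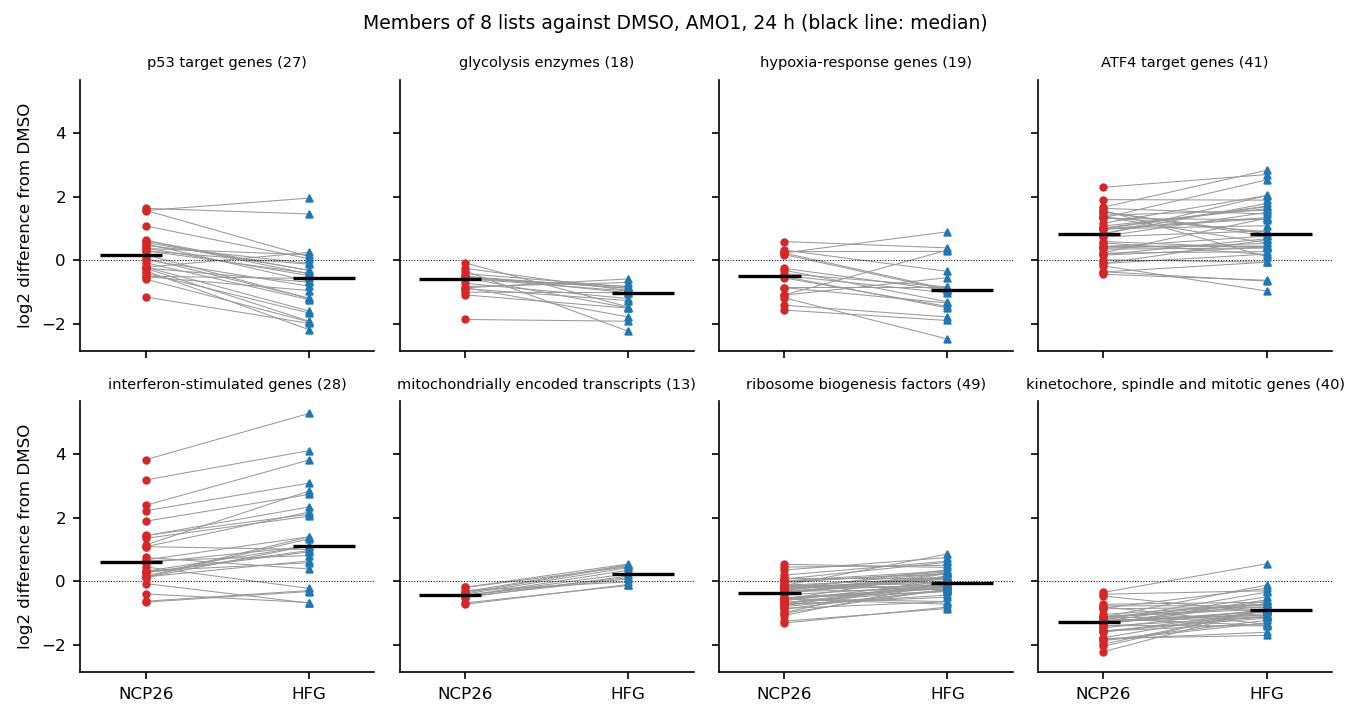
Log2 difference from DMSO of the members of 8 lists tested against DMSO with both compounds, in AMO1 cells at 24 h, for NCP26 (red circles) and HFG (blue triangles). Grey lines join a gene's 2 values, which share the same DMSO libraries, and black bars are medians. ATF4 targets lie mostly above 0 with both compounds, glycolysis genes below 0 with both, and mitochondrially encoded transcripts mostly below 0 with NCP26 and above it with HFG.

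Interferon-stimulated genes were mostly above DMSO with both, 17 of 28 with NCP26 (median 0.61) and 25 of 30 with HFG (median 1.23). Mitochondrially encoded transcripts lay on opposite sides, 13 of 13 lower with NCP26 (median -0.44) and 9 of 13 higher with 1 lower with HFG (median 0.24). Mitotic genes were lower with both, 40 of 40 with NCP26 (median -1.28) and 36 of 40 with HFG (median -0.91). SDC1 stood at -0.23 with NCP26 and -1.30 with HFG, MCL1 at 0.65 and -0.21, EPRS1 at 0.39 and 0.97, HSPA5 at -0.85 and -0.02, and ABCB1 at 1.38 and 2.29. In all, 367 genes with a mean of at least 5 CPM were called in the direct contrast and called on opposite sides of DMSO, 201 of them higher with NCP26. ALPK2, a kinase gene, was at 90.9, 90.5 and 92.8 CPM with NCP26 and at 21.2, 25.97 and 21 CPM with HFG, 1.03 and -0.98 from DMSO on the log2 scale. DRAM1, a p53-induced autophagy gene (0.66 and -1.36), TRIM22 (0.80 and -1.18) and TANC2 (0.77 and -1.19) had the same pattern. SMOC1, an extracellular matrix protein gene, was at 57.5, 53.8 and 57.1 CPM against 193, 174 and 189 CPM, -0.85 and 0.86 from DMSO, and CCR1 (-0.86 and 1.01) and FOS (-1.08 and 0.66) followed it. LRRC63 also met the criteria, by the library noted above.

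Each compound was next compared with its structural relative at the same dose and time, all in the same set of libraries as the direct contrast. NCP26 against NCP22 called 5603 of 10778 genes (52.0%) and HFG against halofuginol 6036 of 10656 (56.6%). By direction, 2834 were higher and 2769 lower with NCP26, and 2975 higher and 3061 lower with HFG. CDKN1A stood at -0.26 ± 0.07 for NCP26 against NCP22 and at -2.32 ± 0.09 for HFG against halofuginol, and MDM2 at 0.00 and -1.32. DDIT3 stood at 1.87 and 1.20, CHAC1 at 1.4 and 2.65, and EPRS1 at 0.41 and 0.94. ATF4 stood at -0.50 (adjusted p = 2e-05) and at -0.10 (adjusted p = 0.127). For ATF4 targets 31 of 41 were higher with NCP26 than with NCP22 (median 0.66) and 33 of 41 with HFG than with halofuginol (median 0.75), and for p53 targets 13 of 28 were higher and 8 lower with NCP26 (median 0.19) and 2 of 27 higher and 18 lower with HFG (median -0.72). The 8 of 28 p53 targets lower with NCP26 was near the share over all tested genes. The comparisons with NCP22 and with halofuginol share no library with each other, and NCP22 and halofuginol are not untreated controls.

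At 6 h few genes were called between the compounds, which does not show that the other genes were alike. The same contrast within AMO1 libraries of 6 h called 28 of 10749 genes (0.260%), 7 higher with NCP26 and 21 higher with HFG. At an unadjusted p under 0.05 there were 1416. Leaving out 1 library of that time gave 100 genes for the first NCP26 replicate and 7 for the second, and 13, 5 and 6 genes for HFG replicates 1, 2 and 3. That first NCP26 replicate stood apart, with 15581 genes with a count against 13577 and 13636 in replicates 2 and 3. Mitochondrially encoded transcripts took 5.1% of its counts, against 4.05% and 3.98%. The cause was not tested. EGR1 (-1.53, adjusted p = 0.0131) and FOS (-1.07, adjusted p = 0.0355) were higher with HFG at 6 h as at 24 h, ATF3 was higher with HFG at 6 h (-0.72, adjusted p = 0.0206) but not at 24 h, and 9 of 29 immediate early genes were called in that direction. ARHGDIB (0.92, adjusted p = 0.0327) was already higher with NCP26. The difference between the contrasts at 24 h and 6 h passed in 2840 of 11114 genes (25.6%), 19 of 28 p53 targets among them with a larger NCP26 excess at 24 h and 0 with a smaller. CDKN1A, on a scale set over groups of both times and lines, averaged 71.1 CPM with NCP26 and 62.8 CPM with HFG at 6 h. DMSO averaged 436 CPM at that time. At 24 h the CDKN1A means were 308 CPM with NCP26, 85.6 CPM with HFG and 386 CPM with DMSO. HK2 averaged 62.0 and 49.0 CPM at 6 h (DMSO 249 CPM) and 333 and 127 CPM at 24 h (DMSO 352 CPM). NECTIN1 averaged 367 and 251 CPM at 6 h (DMSO 992 CPM) and 799 and 151 CPM at 24 h (DMSO 997 CPM). For these 3 genes both compounds were below DMSO at 6 h, and at 24 h the NCP26 mean lay nearer to that of DMSO than the HFG mean did. The 24 h libraries of NCP26 and HFG belong to another set than the 6 h libraries and the DMSO libraries of both times. For the compounds, time and set therefore cannot be told apart in these levels. Nor can treatment and set where the compounds are set against DMSO at 24 h. Each contrast between the compounds lies within 1 set.

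In L363-CFZr at 24 h the contrast was smaller and partly different. It called 1354 of 10462 genes (12.9%), 577 higher with NCP26 and 777 higher with HFG, and 26 were at least 2-fold apart. The count was 874, 633 and 588 without HFG replicates 1, 2 and 3 of that line. Of 10213 genes tested in both lines 907 were called in both, 20.3% of the 4478 called in AMO1 and 67.3% of the 1348 called in L363-CFZr, and 755 of the 907 (83.2%) had the same sign. Ribosomal protein genes were higher with HFG in both lines at 24 h (76 of 77 in L363-CFZr, median -0.27), as were 10 of 13 mitochondrially encoded transcripts (median -0.185). In AMO1 at 6 h the median of the ribosomal protein genes was 0.318, with 0 of 77 called. Their difference between 24 h and 6 h passed in 52 of 77, all with a smaller NCP26 excess at 24 h. JCHAIN (-0.78) and HSPA8 (-0.70) also kept their sign and passed in L363-CFZr, as did ERN1 (0.90) and TNFRSF10B (0.91) in the other direction.

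ISR genes differed between the lines. In L363-CFZr 31 of 40 ATF4 targets were higher with NCP26 and 0 higher with HFG (median 0.32), against 10 and 21 of 41 in AMO1, and the difference between lines passed in 27 of 41 with a smaller NCP26 excess in AMO1 and in 2 with a larger. CHAC1 was -1.17 in AMO1 and 0.56 in L363-CFZr, ASNS -0.36 and 0.31, INHBE 0.00 and 0.99, TRIB3 0.17 and 1.03, and ATF3 0.05 and 1.32. Over all genes that difference passed in 2440 of 11115 (22.0%). Glycolysis genes were on opposite sides, 14 of 18 higher with NCP26 in AMO1 and 0 of 17 in L363-CFZr, where 11 were higher with HFG (median -0.22), and the difference passed in 17 of 18. SDC1 was 1.06 in AMO1 and -0.26 in L363-CFZr. p53 targets counted 5 of 24 higher with NCP26 in L363-CFZr (median 0.12), with CDKN1A at 0.72, and interferon-stimulated genes 1 of 30 higher with NCP26 and 3 higher with HFG (median 0.14). The lines differ in origin, drug resistance and library set, which cannot be told apart.

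**Figure D4:**
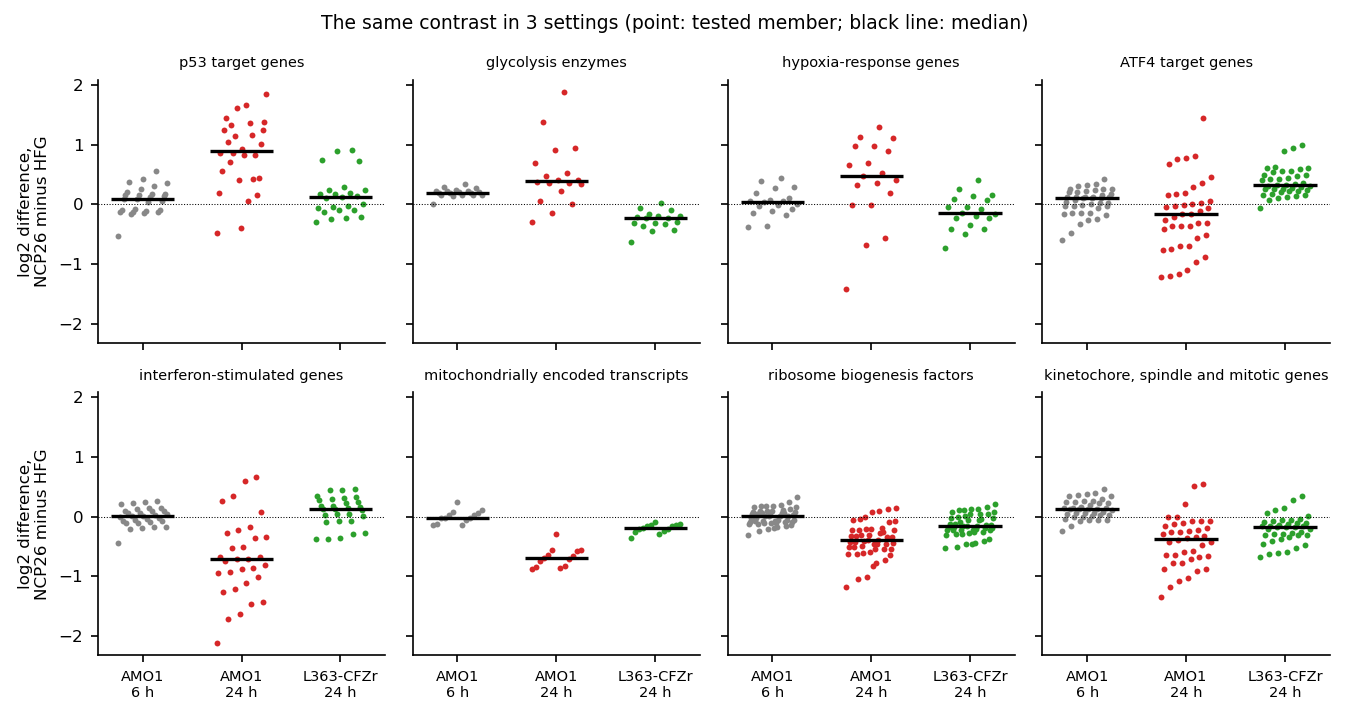
Log2 difference between NCP26 and HFG for the members of 8 lists, in AMO1 cells at 6 h (grey), AMO1 cells at 24 h (red) and L363-CFZr cells at 24 h (green). Points are genes tested in the AMO1 24 h contrast and black bars are medians. In AMO1 at 24 h p53 targets lie mostly above 0 and interferon-stimulated genes mostly below it, and ATF4 targets lie mostly above 0 in L363-CFZr but on both sides of it in AMO1 at 24 h.

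The proline content of the encoded proteins was similar in both directions. The median share of proline residues was 5.47% for genes higher with NCP26, 5.48% for genes higher with HFG and 5.38% for genes not called, and across 10517 genes it correlated with log2FC at -0.00612 (Pearson's r, genes not being independent replicates). Across 10613 genes the log2FC correlated at -0.0448 with GC content and at 0.147 with log2 transcript length.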

How the data were processed

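RNA-seq was performed by the authors on 66 libraries of myeloma cells (poly(A) selection, directional library kit, paired-end reads). The authors quantified transcripts with kallisto (version and strand setting: not given in the sources used here) and deposited 1 table of counts per gene that is not normalised. The study's methods name GRCh38 and the submitters' processing notes list hg19. Gene coordinates printed here come from GENCODE v44 on GRCh38, which named 95.7% of the 20167 identifiers.

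Counts were analysed in R 4.3.3 with edgeR 4.0.16 (TMM scaling, filterByExpr with a minimum count of 10 and total of 15, quasi-likelihood test, Benjamini-Hochberg adjustment over all genes tested, called under 0.05), on the 2 groups of each contrast, and differences between contrasts as an interaction over their 4 groups. Replicate numbers did not pair the samples: deviations of same-numbered libraries correlated at -0.023, 0.0169 and -0.0199. DESeq2 1.42.0 and other settings served as alternatives. The fit was tested on simulated counts. In the direct contrast 42.4%, 80.6% and 100% of log2 changes of 0.5, 1 and 2 were recovered, and 3.87% of calls were false. These changes were given to 66, 67 and 67 of 10672 genes. For the difference between times 12.3%, 62.7% and 92.4% were recovered, and 6.72% of calls were false. Here 65, 67 and 66 of 10988 genes were changed. The data called far more genes (44.9% and 25.6%) than the simulation changed, so these rates do not carry over to them. In the simulation small changes were often missed, above all in the difference between times. How many were missed in the data was not tested. Named genes were 24 genes listed for the study and the 10 largest called differences each way without overlap and with at least 5 CPM. They also held up to 3 called members each way of each list and up to 5 genes each way on opposite sides of DMSO. The 3 largest differences of the contrast between times and lines completed them. Other genes with values were chosen after their values were seen. The members and lists were chosen with earlier results of these data known. Of the 24 genes listed for the study, 12 were higher with NCP26 and 9 higher with HFG. Not all of them are named in its text. Some came there from patient data, proteomics or dependency screens. As the study also used these RNA-seq data, the counts are not independent evidence. Some genes and 1 list are not reported here.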

Additional observations from a re-analysis of the deposited data

Results flagged for a closer look

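The difference between NCP26 and HFG itself differed between 24 h and 6 h in AMO1 for 2840 genes and between AMO1 and L363-CFZr at 24 h for 2440 genes, by the interaction term in edgeR (quasi-likelihood, adjusted p under 0.05 after Benjamini-Hochberg). Values below are differences of log2 differences. Time and line coincide with the sample-sheet set, from which they cannot be told apart.

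Between 24 h and 6 h in AMO1, the contrast shifted towards NCP26 for L1CAM (2.72), TNFRSF18 (2.7), CDKN1A (1.66), CCND1 (1.41), MDM2 (1.3), MCL1 (0.915), PPP1R15A (0.807), ATF3 (0.77), SDC1 (0.686), DDIT3 (0.483), CCND2 (0.439) and POU2AF1 (0.359). It shifted towards HFG for CHAC1 (-1.34), HSPA5 (-0.851), ASNS (-0.652), EPRS1 (-0.59), PRDM1 (-0.44), TCF3 (-0.416) and MYC (-0.403). L1CAM was at 4.57, 5.68 and 5.97 CPM with NCP26 and 7.01, 4.02 and 5.62 CPM with HFG at 6 h, where the compounds overlapped. The unnamed gene ENSG00000262621 had the largest value (8.95), but it was at 0 in all NCP26 libraries at 6 h and at 0.412, 26.7 and 15.8 CPM with HFG, so its size depends on the prior count of the fit.

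Between AMO1 and L363-CFZr at 24 h, the contrast was further towards NCP26 in AMO1 for SDC1 (1.35), CDKN1A (1.16), POU2AF1 (0.926), MDM2 (0.904), MCL1 (0.665), CCND2 (0.321), IRF4 (0.306) and PIM2 (0.213). It was further towards HFG for CHAC1 (-1.7), ATF3 (-1.23), INHBE (-0.946), TRIB3 (-0.813), SESN2 (-0.692), EPRS1 (-0.661), ASNS (-0.628), HSPA5 (-0.528), ATF4 (-0.496), DDIT3 (-0.402), PPP1R15A (-0.247) and TCF3 (-0.215). GSTP1 (5.56) and FGFR1 (5.06) were at 0 in all L363-CFZr libraries given NCP26 and at most at 0.722 CPM with HFG, so their values depend on the prior count. TENM1 (-4.88) was among the genes raised in AMO1 HFG replicate 1, at 52.7 CPM there and at 11.8 and 17 CPM in the other HFG libraries. In L363-CFZr it was at 45.3, 3.27 and 3.78 CPM with NCP26 and at 4.17, 0.361 and 3.13 CPM with HFG. Single libraries thus weigh on its value in both lines.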

How the results depend on the processing

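The direct contrast called 4842 genes, and from 3514 (DESeq2 Wald test) to 5059 (no filter on low counts) under the other settings, 3650 with all 6 AMO1 groups of 24 h in the fit, and 4166 to 4742 when a library was left out. With differences of at least 2-fold only it was 857. Of 3954 values of named genes under other settings, 3758 kept their direction and side of the threshold, 184 no longer passed, 7 newly passed and 5 changed sign. The last were INHBE, from -0.05219 to 0.03904 when a library was left out (-0.005628 without NCP26 replicate 1, -0.01707 without NCP26 replicate 2), and ENSG00000262621, from -0.3214 to 1.691 (-0.1262 without NCP26 replicate 2), neither called in the direct contrast. The cause was not tested. The 6 h count of 28 was 70 with the DESeq2 Wald test (38.6% higher with NCP26, against 25% of the 28), 366 without a filter (43.7%), 54 with a GC offset, and 5 to 100 when a library was left out. The L363-CFZr count was 588 to 1688 when a library was left out. With the replicate block the 6 h count was 17 (11.8% higher with NCP26) and that of the direct contrast 4778; the numbers did not pair the libraries. Of 1350 list counts under other settings 1254 stayed within 1.5 times. HFG replicate 1 was the shallowest library of the contrast, and with all 6 thinned to its total of 1666325 counts 4050 genes were called.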
